A study of Mus musculus with 48 samples.

Results

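The genes described here were the 110 of 16510 genes in the count table whose names begin with Nduf, Sdh (*Sdha* to *Sdhd*), Uqcr, Cox4 to Cox8 or Atp5 (89 respiration genes), or with Atp6v or Atp6ap (21 V-ATPase genes). The naming rule uses no measured value. They were followed in hypothalamic cells of mouse embryos at E18.5, as unique molecular identifiers (UMIs) that tag single captured RNA molecules near their 3′ ends. The control embryos were Eed fl/fl, and the Eed-cKO embryos were Eed fl/fl; Sox1-Cre/+, so that both genotypes carried the floxed *Eed* alleles and the Cre driver was present in the Eed-cKO embryos alone. *Eed* encodes a core subunit of Polycomb repressive complex 2, which deposits the repressive histone mark H3K27me3. Cre was expressed from the *Sox1* locus, which is active in the progenitors of the whole central nervous system, so loss of *Eed* was not limited to the hypothalamus or to neurons. There were 6 control embryos (2 female and 4 male, 22 libraries, 7186 cells) and 9 Eed-cKO embryos (5 female and 4 male, 26 libraries, 6935 cells). By the leading number of the library names, the embryos came from 4 control and 6 Eed-cKO litters, with 0 litters holding both genotypes, so litter and genotype cannot be told apart.

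Neurons were the cells with 1 or more UMIs of at least 3 of the 6 genes *Stmn2*, *Tubb3*, *Snap25*, *Syt1*, *Elavl4* and *Rbfox3*. Glia were the remaining cells with at least 3 of 12 glial and radial glial genes (such as *Slc1a3*, *Fabp7*, *Sox9* and *Olig1*) and at most 1 of 11 vascular or immune genes. This gave 5898 control and 5224 Eed-cKO neurons, and 449 control and 761 Eed-cKO glia. The depth per embryo was lower in glia, with 187425 to 454769 UMIs in control embryos and 76402 to 551670 in Eed-cKO embryos, against 4514289 to 6943612 and 510215 to 5312989 UMIs in neurons. In control embryos, genes outside the gates behaved as their names say. All 6 further neuronal genes were higher in control neurons, and all 6 further astrocyte genes were higher in control glia. The median summed level of the neuron gate was 7145 CPM (UMIs scaled to a fixed total of UMIs per sum) in control neurons and 295 CPM in control glia. The sums of marker lists carry no TMM factors. The CPM of single genes and of the families per embryo carry TMM factors set within each cell class.

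Mitochondria make ATP by passing electrons from nutrients along complexes I to IV of the respiratory chain, which pump protons across the inner membrane, and by letting the protons return through complex V, the ATP synthase. Neurons are known to depend on this route for the ion pumping and transmitter release that follow electrical activity, whereas astrocytes are known for a stronger use of glycolysis. The V-ATPase is a related rotary machine that runs in the opposite direction: its V1 sector spends ATP and its membrane sector V0 moves protons into lysosomes, endosomes and synaptic vesicles, where the proton gradient drives the loading of transmitter. Several subunits of both machines are encoded by small families of paralogues that differ between tissues.

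Libraries differed in ways that bear on these genes. The largest library held 1207 cells (of control embryo 5) and the next largest 465. Eed-cKO embryo 2 had 1 library and 658175 UMIs, the fewest of any embryo. In neurons, the summed CPM of 10 dissociation response genes (immediate early and heat shock genes such as *Ier2* and *Fosb*) had a median of 583 in control and 1008 in Eed-cKO embryos. That of the 6 further astrocyte genes was 168 against 329 CPM, and that of the 11 vascular or immune genes was 28.5 against 105 CPM. In glia, the dissociation response sum was 4651 against 6819 CPM and the glia gate itself 20490 against 11192 CPM. Of the 12 glia gate genes, 6 were lower and 0 higher in Eed-cKO than in control glia (adjusted p under 0.05 by edgeR). Of the 6 further astrocyte genes, 3 were lower and 1 higher. Over all genes tested in glia, 4.07% were lower and 6.29% higher. The largest falls among the gate genes were *Pdgfra* (-2.44 on the log2 scale), *Ptprz1* (-1.57) and *Olig2* (-1.26). The paper reports more cells expressing *Gfap*, *Foxj1* and *Rax* in the mutants. The share of each glial cell type was not tested here, so the glial differences below cannot be read as changes within like cells. The vascular or immune sum in glia was 41.8 CPM (9.05 to 68.3) in control and 192 CPM (119 to 276) in Eed-cKO embryos, with no overlap. The part of these differences in the results below was not tested. Because the sums pool cells of many kinds, a smaller share of cells expressing a gene and less RNA per cell cannot be told apart.

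*Eed* itself was 27.5, 31.6 and 32.9 CPM (lowest, median and highest control embryo) in neurons and 17.8, 22.5 and 27.8 CPM in Eed-cKO neurons, a log2 fold change of -0.41 (SE 0.10, adjusted p = 0.00584 by edgeR's quasi-likelihood test). In glia the log2 fold change was -0.92 (SE 0.27, adjusted p = 0.0250 by edgeR). Counting at the 3′ end can lie outside the deleted exons, so these values check the labels only in part.

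Both families were a small share of the RNA. Respiration genes took 2.5% of all UMIs of neurons and V-ATPase genes 0.413%, against 2.16% and 0.239% in glia. Of the 110 genes, 102 passed the filter on low counts in neurons (85 respiration and 17 V-ATPase) and 101 in glia (84 and 17). The 8 genes that passed in neither class were *Atp6ap1l*, *Atp6v0a4*, *Atp6v1b1*, *Atp6v1c2*, *Cox4i2*, *Cox6a2*, *Cox7b2* and *Ndufa4l2*, and *Atp5l* did not pass in glia.

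The first question was how these genes differed between Eed-cKO and control neurons. The summed level of the respiration genes was 23019, 24336 and 29601 CPM in the lowest, median and highest control embryo and 19675, 25143 and 27670 CPM in Eed-cKO embryos, with means of 24980.5 ± 2382 (SD, n = 6) and 24762 ± 2242 (SD, n = 9). The summed V-ATPase level was 4067, 4211 and 4497 CPM in control and 3774, 4044 and 4299 CPM in Eed-cKO neurons, with means of 4270 ± 168 (SD, n = 6) and 4070 ± 161 (SD, n = 9). The ranges overlapped in both families. By complex, the summed medians were 8582 and 8791 CPM for complex I, 843 and 897 CPM for complex II, 2029 and 2024 CPM for complex III, 5740 and 6138 CPM for complex IV, and 6790 and 7048 CPM for complex V, in control and Eed-cKO neurons. Here and below, genes were assigned to complexes by the start of their names alone. *Ndufa4* therefore counts in complex I, and *Atp5s* and *Atp5sl* count in complex V, whether or not their proteins are subunits of it.

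**Figure D1:**
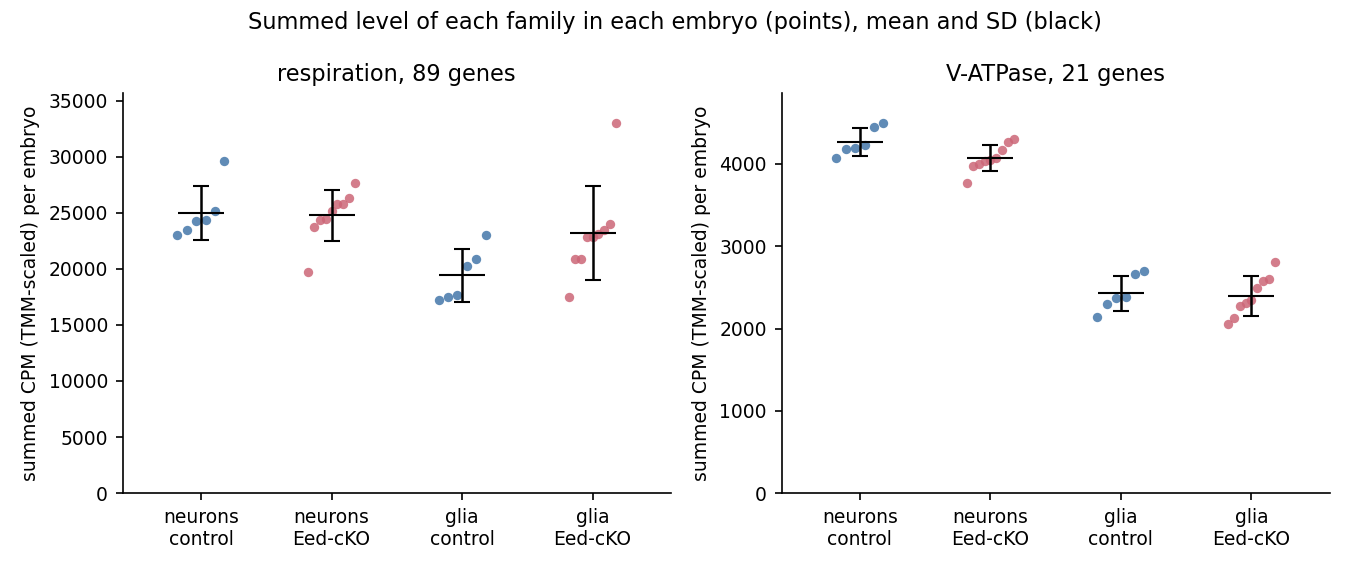
Summed CPM of the respiration genes and of the V-ATPase genes (linear vertical axes) in neurons and glia, with a point for each of the 6 control and 9 Eed-cKO embryos and black lines for the mean and SD. The genotypes overlap in each family and cell class, and the V-ATPase sum is lower in glia than in neurons in all 15 embryos.

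Gene by gene, 7 of the 85 tested respiration genes rose and 5 fell in Eed-cKO neurons. Over all 12192 genes tested, 9.24% rose and 7.75% fell. The median log2 fold change of the respiration genes was -0.01, beside 0.01 over all genes. Of the 17 tested V-ATPase genes 1 rose and 4 fell, with a median of -0.09. When sums were scaled by their totals only, without TMM factors, the respiration split was 13 higher and 2 lower and the V-ATPase split 2 higher and 1 lower. Without control embryo 5, 18 respiration genes rose and 5 fell. Without the largest library, which came from that embryo, 18 rose and 6 fell. Counts under these and later alternative settings are given without the share of all genes called under the same setting. They therefore do not show changes particular to these families.

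*Cox6b2* and *Atp5g2* changed most in neurons. *Cox6b2* encodes the testis-type isoform of subunit 6b of cytochrome c oxidase (complex IV), an outer subunit that joins the dimer. It was 7.64, 9.99 and 13.6 CPM in the lowest, median and highest control embryo and 13.7, 21.3 and 28.4 CPM in Eed-cKO embryos. The groups did not overlap, by a small margin that rests on Eed-cKO embryo 2, the embryo with the fewest UMIs. The log2 fold change was 1.04 (SE 0.15, adjusted p = 5.22e-05 by edgeR), and it was 0.76 (SE 0.15, adjusted p = 0.00072 by edgeR) in the 9960 neurons left when cells with 3 or more glial markers or more than 1 vascular or immune marker were removed. *Atp5g2*, 1 of 3 genes for the proton-carrying c subunit of the ATP synthase, was 2.55, 7.40 and 13.8 CPM in control and 3.92, 19.7 and 23.5 CPM in Eed-cKO neurons (log2 fold change 1.32, SE 0.24, adjusted p = 0.00069 by edgeR). In 8 of the 9 Eed-cKO embryos it lay above the highest control, the exception being Eed-cKO embryo 2. Both genes passed the test in all 31 alternative settings run in neurons. Of the last 400 bases of the *Atp5g2* transcripts, 29.6% of the 50-base words also occurred in other genes (*Gm10175*, *Gm10231* and *Mir688*), so its count is uncertain.

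The paralogues of these genes did not pass the test. *Cox6b1*, the ubiquitous form, was named after its values were seen. Its median was 663 CPM in control and 655 CPM in Eed-cKO neurons, with ranges of 628 to 814 and 408 to 746 CPM. Among the UMIs of both genes, *Cox6b2* held a median of 1.49% in control and 3.26% in Eed-cKO neurons. The major c-subunit genes *Atp5g1* and *Atp5g3* had medians of 246 and 963 CPM in control neurons and 264 and 942 CPM in Eed-cKO neurons, neither past the test. The *Atp5g2* share of the 3 genes was 0.625% and 1.56%.

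The promoters of *Cox6b2* and *Cox6b1*, paralogues of which the first passed the genotype test and the second did not, are printed from RefSeq (GRCm38.p6, 250 bases before to 50 after the start, 5′ to 3′ on the gene's strand) with CpG pairs, the substrate of DNA methylation, in capitals. The *Cox6b2* window is chr7:4753045-4753344 (minus strand) and holds 10 CpG pairs, and the *Cox6b1* window is chr7:30626065-30626364 (minus strand) and holds 17. The median over 32851 windows was 7.
Cox6b2 promoter: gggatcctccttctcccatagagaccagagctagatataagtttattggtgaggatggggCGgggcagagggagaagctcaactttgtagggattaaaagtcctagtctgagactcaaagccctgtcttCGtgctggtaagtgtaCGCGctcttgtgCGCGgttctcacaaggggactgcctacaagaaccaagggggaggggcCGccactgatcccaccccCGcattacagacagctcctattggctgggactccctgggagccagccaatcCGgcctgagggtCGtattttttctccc
Cox6b1 promoter: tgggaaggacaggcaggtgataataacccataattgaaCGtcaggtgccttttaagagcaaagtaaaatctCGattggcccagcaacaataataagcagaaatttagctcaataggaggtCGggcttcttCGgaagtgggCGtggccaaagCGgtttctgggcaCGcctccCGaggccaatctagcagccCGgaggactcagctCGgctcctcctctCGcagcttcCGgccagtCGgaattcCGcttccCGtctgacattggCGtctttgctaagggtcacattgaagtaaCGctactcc
In the gene annotation of this build, *Cox6b2* lies at chr7:4751792-4753094 and *Cox6b1* at chr7:30616861-30626151, so each window covers the start of its gene.

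**Figure D2:**
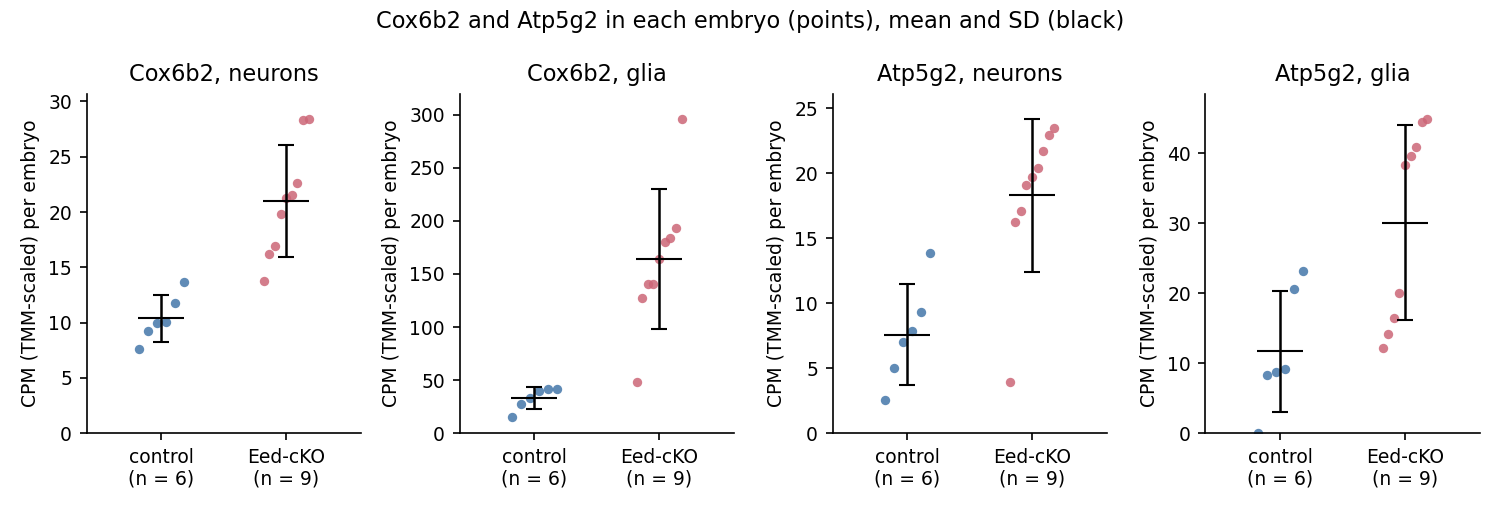
CPM of *Cox6b2* and *Atp5g2* in neurons and glia (linear vertical axes), with a point for each of the 6 control and 9 Eed-cKO embryos and black lines for the mean and SD. *Cox6b2* is separated between genotypes in both cell classes, and in glia it reaches 296 CPM against at most 41.5 CPM in control. The separation rests on Eed-cKO embryo 2, which has the fewest UMIs, at 13.7 CPM in neurons and 48.6 CPM in glia. The highest controls are 13.6 and 41.5 CPM.

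In complex I, which takes electrons from NADH, 2 of 36 tested subunits rose and 1 fell. Over all genes tested in neurons 9.24% rose and 7.75% fell, the shares to set beside this and the following counts by complex. *Ndufs3*, a subunit of the arm that carries electrons to ubiquinone, was 42.6, 53.8 and 78.1 CPM in control and 67.1, 75.3 and 94.8 CPM in Eed-cKO neurons (log2 fold change 0.44, SE 0.11, adjusted p = 0.00881 by edgeR). The groups overlapped, and 64.7% of the words at its 3′ end also occurred in *Gm11927* and *Gm12251*, so its count is uncertain. *Ndufs8*, an iron-sulphur subunit of the same arm, rose by a log2 fold change of 0.33 (SE 0.10, adjusted p = 0.0316 by edgeR) from a median of 113 to 153 CPM. *Ndufb4*, a subunit of the membrane arm, fell from a median of 61.9 CPM (43.0 to 70.4) to 44.3 CPM (34.3 to 50.8), a log2 fold change of -0.49 (SE 0.11, adjusted p = 0.00412 by edgeR), and was below every control in 4 of 9 embryos. *Ndufs1*, *Ndufv1* and *Ndufa4*, which carry an iron-sulphur chain, the NADH site and a subunit now placed in complex IV, were not past the test, with medians of 137 and 127 CPM, 98.4 and 130 CPM, and 590 and 586 CPM in control and Eed-cKO neurons.

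Of the 7 complex I assembly factors, 1 rose and 2 fell. *Ndufaf3* had medians of 46.9 and 57.1 CPM in control and Eed-cKO neurons (log2 fold change 0.32, adjusted p = 0.0224 by edgeR). *Ndufaf2* had medians of 64.0 and 51.7 CPM (-0.26, adjusted p = 0.0352 by edgeR), and *Ndufaf7*, a methyltransferase that modifies an assembling subunit, 53.3 and 46.8 CPM (-0.20, adjusted p = 0.0435 by edgeR). The *Ndufaf7* call was lost in 20 of 31 alternative settings.

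No complex II gene passed the test: *Sdha*, the flavoprotein of succinate dehydrogenase, had medians of 199 and 184 CPM, and *Sdhb*, its iron-sulphur partner, 264 and 297 CPM. In complex III, 1 of 8 genes changed. *Uqcrb*, a subunit that binds ubiquinone, was 151, 171 and 183 CPM in control and 60.8, 135 and 160 CPM in Eed-cKO neurons (log2 fold change -0.35, SE 0.11, adjusted p = 0.0322 by edgeR), with 7 of 9 Eed-cKO embryos below every control. Of the words at its 3′ end 40.7% also occurred in other genes. *Uqcrc1*, a core protein, had medians of 132 and 160 CPM and *Uqcrfs1*, the Rieske iron-sulphur protein, 294 and 316 CPM, both short of the test.

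In complex IV, which reduces oxygen, 3 of 13 tested genes rose and 1 fell. Besides *Cox6b2*, *Cox4i1*, the common form of the subunit that senses ATP, was 700, 767 and 976 CPM in control and 860, 952 and 1215 CPM in Eed-cKO neurons (0.29, SE 0.08, adjusted p = 0.0162 by edgeR). *Cox7a2l*, which joins complexes III and IV into supercomplexes, was 124, 131 and 165 CPM and 125, 176 and 208 CPM (0.32, SE 0.09, adjusted p = 0.0125 by edgeR). *Cox7b*, a small subunit needed for assembly, was 494, 538 and 654 CPM and 308, 460 and 530 CPM (-0.29, SE 0.09, adjusted p = 0.0250 by edgeR). All of these groups overlapped. The *Cox7b* call was lost without control embryo 5. *Cox5a*, *Cox7a2* and *Cox8a*, further structural subunits, had medians of 613 and 615 CPM, 438 and 453 CPM, and 421 and 482 CPM and were not past the test.

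In complex V, *Atp5g2* was the only 1 of 17 tested genes to pass. The catalytic core genes *Atp5a1* and *Atp5b* had medians of 703 and 708 CPM and of 745 and 792 CPM in control and Eed-cKO neurons.

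In the V-ATPase, *Atp6v1g1*, the common form of the stalk subunit G, rose in Eed-cKO neurons. It was 81.3, 91.3 and 116 CPM in control and 97.0, 124 and 149 CPM in Eed-cKO embryos (log2 fold change 0.37, SE 0.09, adjusted p = 0.00997 by edgeR), with 6 of 9 embryos above every control. The call was lost in 2 of 31 alternative settings, litters as samples among them. *Atp6v1g2*, its brain form, had 197, 218 and 246 CPM against 171, 202 and 226 CPM and was not past the test. Among the UMIs of both genes, *Atp6v1g2* held a median of 70.6% in control (67.9 to 70.8) and 61.3% in Eed-cKO neurons (54.0 to 67.8), ranges that just failed to overlap.

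The 4 V-ATPase genes that fell did so by small amounts. *Atp6ap1*, an accessory protein that assists assembly and targeting, was 333, 369 and 419 CPM in control and 287, 314 and 338 CPM in Eed-cKO neurons (-0.24, SE 0.06, adjusted p = 0.00865 by edgeR), with 8 of 9 embryos below every control. *Atp6v1a*, the catalytic ATP-binding subunit, had medians of 594 and 500 CPM, with a highest control of 622 CPM and a lowest Eed-cKO value of 398 CPM (-0.27, SE 0.08, adjusted p = 0.0319 by edgeR). *Atp6v1h*, which couples ATP use to proton movement, fell by 0.19 on the log2 scale (adjusted p = 0.0324 by edgeR) and *Atp6v1d*, in the rotor stalk, fell by 0.18 (adjusted p = 0.0477 by edgeR). The calls of *Atp6v1a*, *Atp6v1h* and *Atp6v1d* were lost in 10, 13 and 18 of 31 alternative settings, and with sex as a covariate 2 V-ATPase genes passed instead of 5. *Atp6ap2*, *Atp6v0a1*, *Atp6v0d1* and *Atp6v1b2*, an accessory protein, the brain form of the proton channel's a subunit, the d subunit and the brain form of the B subunit, had medians of 315 and 281, 216 and 193, 294 and 319, and 261 and 250 CPM.

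**Figure D3:**
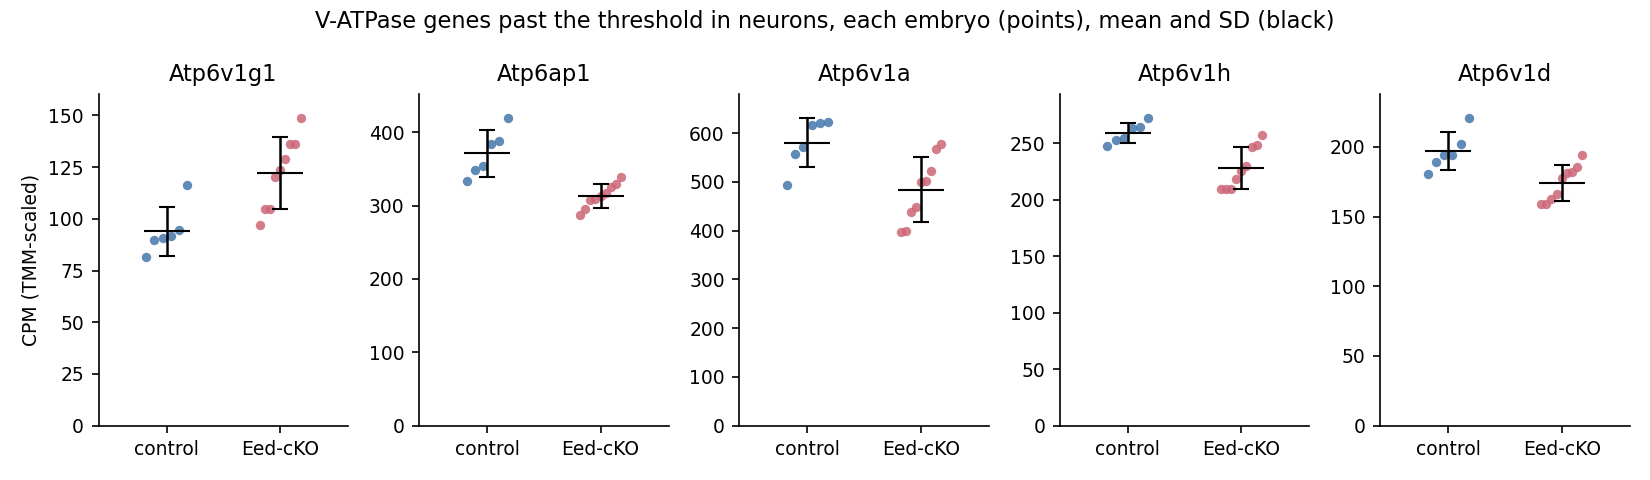
CPM of the 5 V-ATPase genes past the test in neurons (linear vertical axes), with a point for each of the 6 control and 9 Eed-cKO embryos and black lines for the mean and SD. *Atp6v1g1* is shifted up and *Atp6ap1*, *Atp6v1a*, *Atp6v1h* and *Atp6v1d* are shifted down in Eed-cKO embryos, with overlapping groups.

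**Figure D4:**
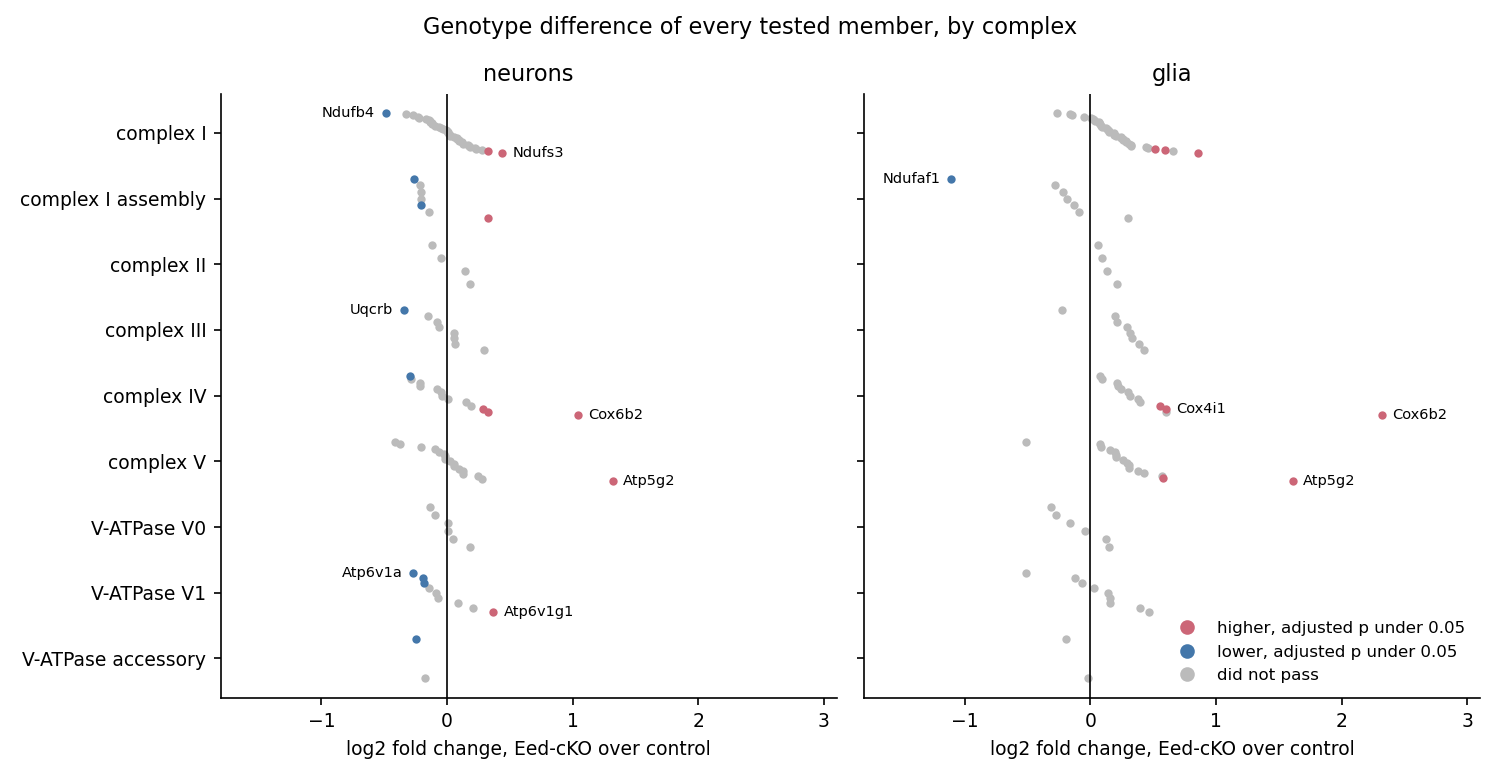
Fitted log2 fold change of Eed-cKO over control (horizontal axis) for each tested gene, in neurons and in glia, grouped by complex or V-ATPase sector, with genes that rose in red, those that fell in blue and the rest in grey. The members lie around 0 in neurons, and in glia the respiration genes lie mostly above 0 with *Cox6b2* highest.

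The same comparison in glia asked whether their respiration and V-ATPase genes differed. The summed respiration level was 17207, 18962 and 22977 CPM in control and 17474, 22827 and 32987 CPM in Eed-cKO glia, with means of 19403 ± 2323 (SD, n = 6) and 23157 ± 4186 (SD, n = 9). The ranges overlapped. The V-ATPase sum was 2142, 2382 and 2697 CPM against 2054, 2350 and 2813 CPM, with means of 2428 ± 216 (SD, n = 6) and 2401 ± 242 (SD, n = 9).

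Of the 84 tested respiration genes 8 rose and 1 fell in Eed-cKO glia, while 6.29% of all 12749 genes tested rose and 4.07% fell. The median log2 fold change of the respiration genes was 0.21, beside 0.03 over all genes. Of the 17 V-ATPase genes 0 passed the edgeR test, with a median of -0.02; 2 had an unadjusted p under 0.05, and DESeq2 and limma-voom called 0.

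*Cox6b2* rose most. It was 15.3, 36.5 and 41.5 CPM in control and 48.6, 164 and 296 CPM in Eed-cKO glia (log2 fold change 2.32, SE 0.25, adjusted p = 7.76e-08 by edgeR), with no overlap, and its share of the UMIs of *Cox6b1* and *Cox6b2* was 6.48% in control and 21.8% in Eed-cKO embryos (medians). The lowest Eed-cKO value was that of embryo 2, whose glia held 76402 UMIs of all genes. The gap between the groups therefore rests on few UMIs. *Cox6b1* had medians of 503 and 504 CPM. *Atp5g2* was 0, 8.97 and 23.2 CPM in control and 12.2, 38.3 and 45.0 CPM in Eed-cKO glia (1.61, SE 0.42, adjusted p = 0.0111 by edgeR). Both genes passed in all 30 alternative settings run in glia. The *Atp5g2* values lay near the floor. Its median share of the UMIs of the 3 c-subunit genes was 1.27% in control glia (0 to 3.01%), where these genes had 1343 UMIs in all. The shared 3′ words given for neurons apply to this count too.

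Other called genes rose by less, with overlapping groups. *Cox4i1* had medians of 610 and 1044 CPM (0.60, adjusted p = 0.00754 by edgeR), and *Ndufv1*, at the NADH site of complex I, 84.0 and 122 CPM (0.59, adjusted p = 0.0346 by edgeR). *Atp5d*, the delta subunit in the central stalk of the ATP synthase, had medians of 291 and 416 CPM (0.58, adjusted p = 0.0224 by edgeR). *Cox5b*, a structural subunit of complex IV, had medians of 189 and 314 CPM (0.56, adjusted p = 0.0358 by edgeR), and *Ndufb7*, in the membrane arm of complex I, 168 and 229 CPM (0.51, adjusted p = 0.0279 by edgeR). The assembly factor *Ndufaf1*, an early chaperone of complex I, was the gene that fell, with medians of 41.4 and 16.4 CPM (-1.11, SE 0.35, adjusted p = 0.0359 by edgeR). Of 30 alternative settings, the call was lost in 13 for *Cox5b*, 12 for *Ndufv1*, 11 for *Ndufaf1*, 10 for *Ndufb7*, 7 for *Atp5d* and 1 for *Cox4i1*. Without Eed-cKO embryo 3 or control embryo 2, 4 respiration genes passed in glia, and 5 passed without control embryo 1 or 3.

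Fixed subunits that did not pass in glia included *Atp5a1* (medians of 563 and 673 CPM), *Atp5b* (564 and 704 CPM), *Cox5a* (263 and 323 CPM), *Sdha* (234 and 257 CPM), *Uqcrc1* (96.3 and 132 CPM) and *Ndufs1* (144 and 140 CPM). Some other gene groups gave context. Over all genes tested, 6.29% rose and 4.07% fell in glia, and 9.24% rose and 7.75% fell in neurons. Of 80 tested cytosolic ribosome genes 43 rose and 2 fell in Eed-cKO glia, against 25 and 2 in neurons. Of 76 mitochondrial ribosome genes 2 rose and 1 fell in glia and 4 and 4 in neurons. Of 15 glycolysis genes 4 rose and 1 fell in glia and 4 and 0 in neurons.

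Whether the genotype difference itself differed between the cell classes was tested as an interaction across embryos. Of 85 respiration genes tested 7 had a lower genotype difference in neurons than in glia and 0 a higher one, where 2.42% of all 12651 genes tested were lower and 3.02% higher. The median was -0.21, against 0.01 over all genes. *Cox6b2* had the largest contrast (-1.29 on the log2 scale, SE 0.28, adjusted p = 0.00446 by edgeR), with a rise of 1.04 in neurons and 2.32 in glia. Others were the ATP synthase genes *Atp5g1* (-0.62), *Atp5k* (-0.60) and *Atp5g3* (-0.45) and the complex IV genes *Cox7c* (-0.51) and *Cox6c* (-0.46). *Cox7c* and *Cox6c* shared 52.4% and 27.4% of their 3′ words with other genes. Of 17 V-ATPase genes 0 passed in edgeR, and 3 had an unadjusted p under 0.05. The interaction and both genotype comparisons rest on the same embryos, so they are not separate evidence.

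The second question was how neurons differed from glia of the same embryo. In control embryos, 55 of 85 respiration genes were higher in neurons and 3 were lower, while 32.4% of 12390 genes tested were higher and 28.2% lower. The median difference of the respiration genes was 0.46 on the log2 scale, beside 0.09 over all genes. All 17 V-ATPase genes tested differed, 15 higher and 2 lower, with a median of 1.02. Library size alone as the scaling moved the median of all genes by -0.19; the counts were then 42 higher and 7 lower for respiration and 15 and 2 for the V-ATPase. The CPM values of neurons and glia were scaled separately, so the fold changes come from the joint fit and the levels set side by side are a description. Neuronal sums were a median of 1.29 times the glial sums for respiration (above 1 in 6 of 6 embryos) and 1.73 times for the V-ATPase (6 of 6).

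The V1 sector was higher in neurons throughout: 9 of 9 tested genes, with a median of 1.28. *Atp6v1g2* was 197, 218 and 246 CPM in control neurons and 16.6, 34.9 and 45.9 CPM in control glia (log2 difference 2.84, SE 0.17, adjusted p = 3.24e-14 by edgeR), with no overlap. *Atp6v1b2* (1.60), *Atp6v0a1* (1.57) and *Atp6v1h* (1.38) followed, each higher in neurons in 6 of 6 embryos. The neuron gate genes summed to 295 CPM in control glia. The source of this RNA and its part in these glial levels were not tested.

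The 2 V-ATPase genes that were lower in neurons were both membrane-sector genes. *Atp6v0e*, the ubiquitous form of the small e subunit, was 31.5, 38.0 and 39.5 CPM in control neurons and 195, 259 and 335 CPM in control glia (-2.63, SE 0.12, adjusted p = 2.21e-16 by edgeR). Its brain form *Atp6v0e2*, named after its values were seen, was higher in neurons, with medians of 312 and 241 CPM (0.52, SE 0.11, adjusted p = 0.000125 by edgeR). *Atp6v0e2* held a median of 89.6% of the UMIs of the pair in control neurons and 50.1% in control glia. *Atp6v0a2*, the a subunit of the Golgi apparatus, had medians of 20.5 CPM in neurons and 63.2 CPM in glia (-1.46, adjusted p = 5e-07 by edgeR), opposite to *Atp6v0a1*.

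The promoters of this second pair, which differed in opposite directions, follow from the same RefSeq build, with CpG pairs in capitals. The *Atp6v0e* window is chr17:26676146-26676445 (plus strand, 20 CpG pairs) and the *Atp6v0e2* window is chr6:48537319-48537618 (plus strand, 18 CpG pairs). The annotated *Atp6v0e* gene runs from chr17:26663231 to 26699647, so its window, at the start of a RefSeq transcript, lies inside the annotated gene.
Atp6v0e promoter: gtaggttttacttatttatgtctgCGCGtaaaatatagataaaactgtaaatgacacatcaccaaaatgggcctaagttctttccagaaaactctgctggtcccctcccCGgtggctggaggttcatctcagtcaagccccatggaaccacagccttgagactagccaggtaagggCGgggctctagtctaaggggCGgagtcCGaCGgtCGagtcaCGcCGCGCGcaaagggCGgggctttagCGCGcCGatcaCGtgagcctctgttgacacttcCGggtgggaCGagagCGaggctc
Atp6v0e2 promoter: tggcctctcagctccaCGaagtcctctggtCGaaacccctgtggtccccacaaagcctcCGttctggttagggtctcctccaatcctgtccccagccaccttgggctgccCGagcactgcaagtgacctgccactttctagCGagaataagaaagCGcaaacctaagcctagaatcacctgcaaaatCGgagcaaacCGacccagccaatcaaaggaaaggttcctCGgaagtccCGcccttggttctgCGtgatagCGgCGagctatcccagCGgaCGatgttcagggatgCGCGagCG

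Short motifs were searched in these windows on both strands, for the 89 members with a window (74 respiration and 15 V-ATPase genes). The degenerate consensus of nuclear respiratory factor 1 occurred in 7 of 74 respiration windows (9.46%) and 0 of 15 V-ATPase windows, against 1.41% of 27025 genes. The respiration genes were *Atp5c1*, *Atp5g2*, *Ndufa11*, *Ndufa6*, *Ndufb4*, *Sdhd* and *Uqcrc1*. An exact core of that consensus, searched first, occurred in 7 respiration and 1 V-ATPase windows against 1.07%, and *Atp5g2*, *Ndufa11* and *Uqcrc1* held both. TCACGTGA, the core of the lysosomal CLEAR element, occurred in 1 respiration and 3 V-ATPase windows (*Atp6v0d1*, *Atp6v0e* and *Atp6v1a*) against 1.12%. CCGGAAG, an ETS-type motif, occurred in 17 respiration and 4 V-ATPase windows against 9.93%. Each of these motifs contains CpG, and the member windows were not compared with windows of like CpG content. A match describes the letters alone.

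Among respiration genes, the largest differences between control neurons and glia were *Ndufaf5* (1.69), *Ndufa5* (1.53), *Cox6b2* (-1.52), *Atp5g1* (1.48), *Cox5a* (1.38) and *Ndufb8* (1.15), with *Cox6b2* the exception in direction. *Cox6b2* was lower in neurons in 6 of 6 control embryos, at medians of 9.99 and 36.5 CPM. *Cox5a* had medians of 613 and 263 CPM and *Atp5g1* of 246 and 112 CPM. *Ndufa2*, a complex I subunit, was also lower in neurons (-0.41), as was *Ndufaf3* (-0.45). These 2 were named because the count was small.

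**Figure D5:**
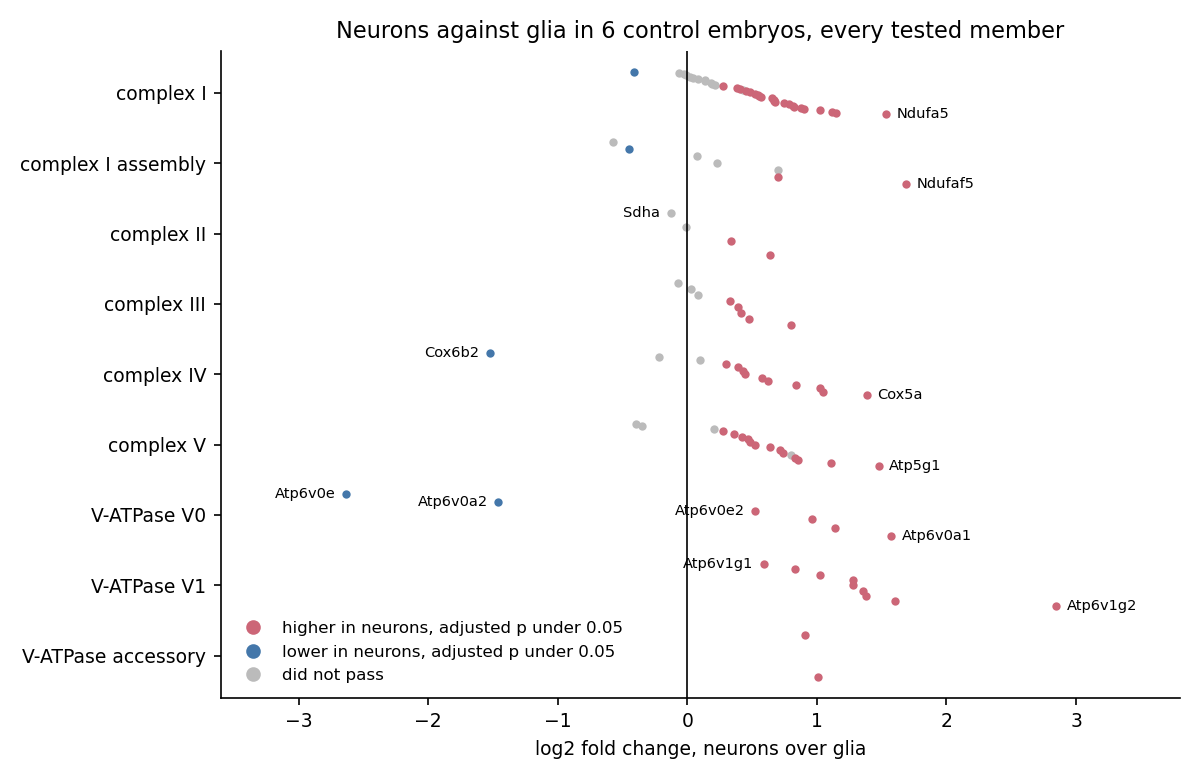
Fitted log2 fold change of neurons over glia in the 6 control embryos (horizontal axis) for each tested gene, grouped by complex or V-ATPase sector, with genes higher in neurons in red, lower in blue and the rest in grey. Most genes lie above 0, *Atp6v1g2* lies farthest right at 2.84, and *Atp6v0e*, *Cox6b2* and *Atp6v0a2* lie farthest left.

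In Eed-cKO embryos, 39 of 85 respiration genes were higher in neurons and 8 lower, against 32.2% and 34.1% of 12992 genes, and 16 of 18 V-ATPase genes were higher and 2 lower. The medians were 0.23 and 0.99. The 18 V-ATPase genes included a low-count tissue-restricted V1 isoform, at 2.30 on the log2 scale, that did not pass the filter in control embryos. The V-ATPase counts of the genotypes therefore cover different sets of genes. *Cox6b2* was -2.84 on the log2 scale, *Atp6v0e* -2.15 and *Atp6v1g2* 3.2. The neuron-to-glia ratio of summed levels had medians of 1.13 for respiration (above 1 in 8 of 9 embryos) and 1.66 for the V-ATPase (9 of 9).

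The other gene lists of these pathways differed in control neurons and glia as follows. Over all genes tested, 32.4% were higher in neurons and 28.2% lower. Of 11 synaptic vesicle genes 11 were higher in neurons and 0 lower. Of 17 lysosome genes, whose lumen the V-ATPase acidifies, 1 was higher and 14 were lower. Of 10 V-ATPase assembly and regulator genes 6 were higher, with *Ncoa7* at 2.30, *Dmxl2* at 1.61 and *Wdr7* at 1.5, and 1 was lower. Of 16 TCA cycle genes 9 were higher and 1 was lower, with *Suclg2* at -3.32. Electron carrier genes split into 2 higher and 3 lower of 12 tested, and mitochondrial biogenesis regulators into 2 and 2 of 11. Glycolysis genes split into 3 and 7 of 15. Respiratory assembly factors outside the naming rule had 7 higher and 1 lower of 26. Mitochondrial ribosome genes had 29 and 4 of 76, and cytosolic ribosome genes 15 and 9 of 80.

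Tissue-restricted isoforms other than *Cox6b2* had low counts. *Cox6a2*, the heart and muscle form of subunit 6a, had 166 UMIs in all neurons and 0 in all glia, pooled over embryos and genotypes. If a count of 0 allows up to 3 UMIs or 0.600 CPM, the pooled level was at least 4.28-fold higher in neurons. This bound covers counting error alone and not the spread between embryos. The gene did not pass the filter and was not tested. *Cox7a1*, the muscle form, had medians of 3.56 and 2.85 CPM in control and Eed-cKO neurons. *Cox4i2*, *Cox7b2*, *Ndufa4l2*, *Atp6v0a4*, *Atp6v1b1* and *Atp6v1c2* had medians of 2.5 CPM or less in neurons of both genotypes.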

How the data were processed

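Cells of the embryonic hypothalamus were measured by droplet single-cell RNA sequencing. The deposited table held raw UMI counts, with genes against cells. Per the paper's methods the authors aligned to mm10 with the SureCell pipeline, and the submitters' processing notes name STAR 2.5.2b and SAMtools 1.3. All 14121 cells of the table were kept, 48 libraries matched the labels, and no doublet caller was run, but removing the 6% of cells with most UMIs was an alternative. Of 14019 barcodes, 101 occurred in more than 1 library. The members and gene lists were chosen with earlier results of these data known.

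The counts of each embryo and cell class were summed. The sums were compared by the quasi-likelihood test of edgeR 4.0.16 (R 4.3.3) after TMM scaling, with Benjamini-Hochberg adjusted p-values over all genes tested and a threshold of 0.05. Genes needed 15 UMIs over the sums, 2 UMIs in 1 sum and a median log-CPM of 1.5. Neurons and glia were compared with the embryo as a block. The embryo is the replicate, so p-values measure spread between embryos. Levels are CPM of the summed counts, and fold changes carry counting error at low UMIs. Named genes were those past the test with the largest changes, fixed subunits of each complex, tissue-restricted isoforms and the largest neuron-glia differences. Shared 3′ ends were taken from the annotated transcripts (108 of 110 members placed). Promoters came from RefSeq.

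The test was checked on simulated counts with known changes. Alternatives used DESeq2 1.42.0, limma 3.58.1, other scalings, filters, gates, sampling units and embryos. The values of 1 gene are not reported here.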

Additional observations from a re-analysis of the deposited data

Results flagged for a closer look

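Among 58 groups of embryos tested for a value far from the rest, 7 stood apart. Chance gives about 1 in 20 for independent groups. These groups reuse the same embryos, the sums include the single genes, and the single genes were those past the genotype test. The flags are therefore not independent. In neurons, the summed respiration level of control embryo 5 was 29601 CPM, against 23019 to 25136 CPM in the other controls, and *Cox7a2l* (165 CPM) and *Cox7b* (654 CPM) were also highest there. The largest library, of 1207 cells, came from this embryo. Eed-cKO embryo 2, with 1 library, had the lowest summed respiration level in neurons (19675 CPM, others 23710 to 27670) and the lowest *Atp5g2* (3.92 CPM, others 16.2 to 23.5). In glia, Eed-cKO embryo 8 had the highest summed respiration level (32987 CPM, others 17474 to 23971) and *Cox4i1* (1521 CPM). The cause of these values was not tested.

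The genotype difference of 6 genes given here differed between neurons and glia by edgeR's interaction test. The contrast, neurons minus glia on the log2 scale, was -1.29 for *Cox6b2* (SE 0.28, adjusted p = 0.00446), -0.60 for *Atp5k* (SE 0.15, adjusted p = 0.00998), -0.62 for *Atp5g1* (SE 0.17, adjusted p = 0.0242), -0.45 for *Atp5g3* (SE 0.13, adjusted p = 0.0289), -0.51 for *Cox7c* (SE 0.16, adjusted p = 0.0465) and -0.46 for *Cox6c* (SE 0.14, adjusted p = 0.0492).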

How the results depend on the processing

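No paired analysis was possible because no litter held both genotypes and replicate numbers only name embryos. Over all alternatives, 75 values of named genes gained a call and 191 lost one. The counts of calls below are given without the share of all genes called under the same setting. They therefore do not show changes particular to these families. No called value changed sign, whereas genes that were not called could change sign, such as *Atp5g2* in control neurons against glia (-0.61 to 1.76) and *Cox7a1* in glia (-0.43 to 1.15). With libraries in place of embryos as samples, which treats pieces of 1 animal as replicates, the calls rose to 34 respiration and 11 V-ATPase genes in neurons and 28 and 1 in glia. Under limma-voom with a minimum fold change (TREAT) they fell to 2 and 0 in neurons and to 3 respiration genes in glia. The V-ATPase calls in neurons were 3 with the exclusive gate, 3 with library size alone, 3 with cells thinned to 2000 UMIs and 2 with sex as a covariate. With litters as samples, 8 respiration and 4 V-ATPase genes were called in neurons and 8 and 0 in glia, and the calls of *Atp6v1g1*, *Atp6v1d*, *Cox7b*, *Ndufaf7*, *Ndufs3*, *Ndufs8* and *Uqcrb* in neurons and of *Ndufb7* in glia were lost. With embryos of at least 3 libraries, glia gave 5 respiration and 1 V-ATPase calls. The interaction gave 4 respiration calls with library size alone and 4 with thinned cells, both alternatives added after seeing the data. Without the largest library, also added later, 24 respiration genes were called in neurons and 1 V-ATPase gene in glia.

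Leaving out 1 embryo at a time gave 7 to 23 respiration calls in neurons (7 without control embryo 1 or 3, 23 without control embryo 5), 2 to 6 V-ATPase calls in neurons (2 without control embryo 1 or 3 or Eed-cKO embryo 3, 5 or 9, 3 without control embryo 2 or 6 or Eed-cKO embryo 1 or 4), 4 to 12 respiration calls in glia (4 without Eed-cKO embryo 3 or control embryo 2, 5 without control embryo 1 or 3) and 0 to 1 V-ATPase calls in glia (1 without control embryo 6). The causes were not tested. The shallowest glial sums held 76402 UMIs in an Eed-cKO embryo and 187425 in a control embryo.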
